A study of Mus musculus with 12 samples.

Results

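The Hox genes are the homeobox genes of the 4 mammalian Hox clusters, and 39 of the 24421 genes in the counts have a symbol made of Hox, a cluster letter from a to d and a paralog number. They were examined across 6 doses of dTAG13 in 12 RNA-seq libraries of mouse embryonic stem (mES) cells. HoxA on chromosome 6 holds 11 of them, HoxB on chromosome 11 holds 10, and HoxC on chromosome 15 and HoxD on chromosome 2 hold 9 each. Each of the 39 had at least 1 count, and 2 had a mean of at least 1 RPKM, the count divided by exon length in kb and scaled to library size. In all, 23204 genes had a count and 11378 had a mean of at least 1 RPKM. The cells (strain B6 in the labels, C57BL/6J in the study's methods) were grown in 2i+LIF, a medium with a pair of kinase inhibitors and leukaemia inhibitory factor. All 6 groups carry the same knock-in, in which a degron tag is fused to BRG1, the ATPase of the mSWI/SNF chromatin remodeler, so that dTAG13 sends the fusion protein to the proteasome. The knock-in cells were grown from colonies of single cells. Controls had no dTAG13 (0 nM), and the other groups had 0.3, 1, 3, 10 or 100 nM for 24 h, with 2 libraries per group. The labels do not say whether the libraries of a group came from separate cultures, while the study calls its replicates biological and describes RNA-seq data as coming from independent experiments. The p-values measure the spread between these libraries.

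Hox genes encode homeodomain transcription factors that give cells their position along the body axis. Within a cluster they are ordered by paralog number, low numbers are used towards the head and early, and high numbers towards the tail and late. In mES cells the clusters are held silent by Polycomb complexes, which bind CpG-rich promoters. Olfactory receptor (Olfr) and vomeronasal receptor (Vmn1r and Vmn2r) genes are large families used in sensory neurons. Most of their genes are also silent in mES cells, and they were set beside the Hox genes as families with no known role in these cells. In these libraries 3 Olfr genes and 1 vomeronasal gene had a mean of at least 1 RPKM.

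RefSeq promoters (build GRCm38.p6) were at hand for 22 of the 39 Hox genes, 18 of them in HoxA and HoxD. In the 250 bases before the start, these 22 held a median of 12 CpG dinucleotides (range 2 to 35), against 6 over all 32851 promoters and 1 over 944 Olfr promoters. The median over the 18 HoxA and HoxD promoters was 12.5, and the 4 of HoxB and HoxC (Hoxb1, Hoxb4, Hoxb8 and Hoxc4) had a median of 10. Promoters with no CpG made up 7.87% of all promoters and 44.3% of Olfr promoters. TATAAA, searched on both strands, was in 3 of 22 Hox promoters (Hoxb8, Hoxd4 and Hoxd13), in 12.4% of all promoters and in 39.4% of Olfr promoters. CCAAT, searched on both strands, was in 13 of 22 and in 33.8% of all promoters. The 150 bases before the start are shown for 4 genes that passed a test below, for Hoxc4, which did not, and for Olfr132, the Olfr gene with most counts at 100 nM among those with none at 0 nM and a promoter at hand. Capitals mark CpG.
Hoxa5 (chr6:52204588-52204737, minus strand): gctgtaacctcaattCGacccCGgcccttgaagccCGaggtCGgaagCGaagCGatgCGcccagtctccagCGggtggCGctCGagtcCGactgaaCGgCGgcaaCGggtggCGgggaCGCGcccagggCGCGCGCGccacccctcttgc
Hoxa10 (chr6:52240855-52241004, minus strand): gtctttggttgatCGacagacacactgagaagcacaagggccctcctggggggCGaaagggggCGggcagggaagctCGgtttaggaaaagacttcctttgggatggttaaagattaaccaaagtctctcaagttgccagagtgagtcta
Hoxd10 (chr2:74691741-74691890, plus strand): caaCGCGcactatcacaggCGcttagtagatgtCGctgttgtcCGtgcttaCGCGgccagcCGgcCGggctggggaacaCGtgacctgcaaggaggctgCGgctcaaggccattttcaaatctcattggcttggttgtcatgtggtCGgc
Hoxd11 (chr2:74679408-74679557, plus strand): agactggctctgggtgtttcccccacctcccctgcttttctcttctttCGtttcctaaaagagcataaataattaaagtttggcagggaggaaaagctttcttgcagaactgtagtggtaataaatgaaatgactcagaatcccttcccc
Hoxc4 (chr15:103034245-103034394, plus strand): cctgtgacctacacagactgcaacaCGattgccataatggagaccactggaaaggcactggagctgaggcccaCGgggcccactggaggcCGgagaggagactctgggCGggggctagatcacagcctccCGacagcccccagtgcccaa
Olfr132 (chr17:38131191-38131340, minus strand): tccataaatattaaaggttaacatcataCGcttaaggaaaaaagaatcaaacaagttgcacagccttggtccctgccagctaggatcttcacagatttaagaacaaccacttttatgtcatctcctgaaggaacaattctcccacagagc
Hoxa5 held 21 CpG in this window and Hoxd10 held 12, whereas Hoxa10 held 4, Hoxd11 held 1 and Hoxc4 held 5. Genes that rose with dTAG13 thus had both CpG-rich and CpG-poor windows.

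Total counts ran from 4663484 in 3 nM replicate 1 to 6375582 in 1 nM replicate 2. The biological coefficient of variation was 7.01% in the fit of slopes over dose rank, and the spread of low genes such as most Hox genes is larger through counting alone. Replicates did not agree equally well at each dose. The chi-square per degree of freedom between the 2 libraries of a dose, near 1 under counting error alone, was 3.97 at 0 nM, 1.96 at 0.3 nM and 5.74 at 1 nM. At 3, 10 and 100 nM it was 15.6, 9.04 and 1.98. Smarca4, the gene of BRG1, had 2385 and 2489 counts in the controls and its log2 change was 0.08 with 100 nM (standard error, SE, 0.060, edgeR adjusted p = 0.465). The degron acts on the protein, so the transcript does not check the dose. The labels' S numbers put 0, 1, 10 and 100 nM in one run of numbers and 0.3 and 3 nM in a separate one, so 3 nM was also set against 0.3 nM.

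The 4 clusters differed in where their summed counts stood across doses, each dose being set against the same 2 control libraries. HoxA and HoxD were higher at every dose than in both 0 nM libraries, HoxB was not, and HoxC was lower from 1 nM on. HoxA had 27 and 19 counts (0 nM), 27 and 30 (0.3 nM), 37 and 39 (1 nM), 49 and 53 (3 nM), 59 and 51 (10 nM) and 84 and 92 (100 nM). HoxD (74668310 to 74765142 on mm10) had 16 and 10 counts (0 nM), 24 and 19 (0.3 nM), 20 and 20 (1 nM), 27 and 32 (3 nM), 44 and 49 (10 nM) and 66 and 71 (100 nM). In both clusters the 2 highest libraries were those of 100 nM, and no library with dTAG13 lay below a 0 nM library in CPM, which is the count scaled to library size.

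The other clusters began from higher sums. HoxB (96194361 to 96368253) had 31 and 49 counts (0 nM), 35 and 20 (0.3 nM), 25 and 22 (1 nM), 32 and 30 (3 nM), 56 and 27 (10 nM) and 45 and 41 (100 nM). HoxC (102921131 to 103036852) had 44 and 55 counts (0 nM), 44 and 32 (0.3 nM), 35 and 41 (1 nM), 23 and 27 (3 nM), 34 and 27 (10 nM) and 46 and 30 (100 nM). HoxB overlapped the 0 nM libraries at 4 doses and was below them at 1 nM. HoxC was below them at 1, 3, 10 and 100 nM, at 100 nM by a small margin in 1 library (7.31 CPM against 7.64).

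**Figure D1:**
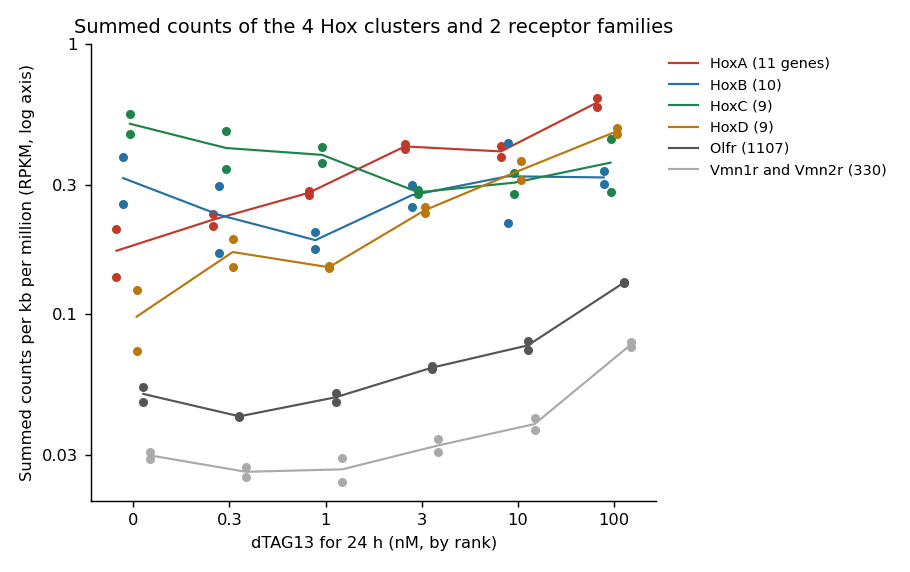
Summed RPKM (log axis) of the 4 Hox clusters and of 2 receptor families, against dTAG13 dose in nM by rank. Each point is a library and lines join the means of 2 libraries. HoxA and HoxD climb from 0.171 and 0.0977 to 0.607 and 0.476, HoxC drops below its start, HoxB ends where it began, and the receptor families bend upwards from 3 nM on.

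As summed CPM, HoxA stood 3.54 ± 1.01-fold above 0 nM at 100 nM (SD, n = 2 libraries per group, as for the other sums) and HoxD 4.87 ± 1.77-fold. HoxB stood at 1.01 ± 0.296 and HoxC at 0.717 ± 0.239 of their 0 nM sums, and all 39 genes together stood at 1.76 ± 0.103. No test was made of these sums. With 0.3 nM the folds were 1.30 ± 0.378 for HoxA and 1.74 ± 0.692 for HoxD, so that the step above 0 nM was smaller than or close to its error. With 1 nM HoxA was at 1.64 ± 0.463 and HoxD at 1.52 ± 0.551, with 3 nM at 2.43 ± 0.690 and 2.48 ± 0.899, and with 10 nM at 2.33 ± 0.675 and 3.50 ± 1.32. Within the run of S numbers that holds 0.3 and 3 nM, HoxA at 3 nM was 1.87 ± 0.145 times its sum at 0.3 nM, HoxD 1.43 ± 0.245, HoxB 1.18 ± 0.486 and HoxC 0.685 ± 0.157. In HoxA, HoxC and HoxD these pairs of libraries did not overlap.

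One gene carried 40.2% to 45.2% of the counts of HoxB, HoxC and HoxD, namely Hoxb9, Hoxc13 and Hoxd13. With that gene left out, the fold at 100 nM was 1.95 for HoxB, 0.727 for HoxC and 5.15 for HoxD. The HoxB sum was therefore level with 0 nM only with Hoxb9, whose level was 1.62 ± 0.295 RPKM in controls and 0.817 ± 0.011 with 100 nM (SD, n = 2).

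The Olfr family was also higher at the upper doses. Its 1012 genes with a count summed to 348 and 322 counts (0 nM), 261 and 264 (0.3 nM), 336 and 318 (1 nM), 362 and 399 (3 nM), 549 and 486 (10 nM) and 921 and 944 (100 nM). The Olfr sum lay below both 0 nM libraries at 0.3 nM, overlapped them at 1 nM and lay above them at 3, 10 and 100 nM. At 100 nM it was 2.59 ± 0.237 times its 0 nM level, and the 330 vomeronasal genes were at 2.57 ± 0.128. At 10 nM these folds were 1.51 ± 0.158 and 1.31 ± 0.109. Without the 5 Olfr genes with most counts the fold at 100 nM was 2.95 ± 0.117. The most counted of them, Olfr986, had 70 counts at 0 nM and 69 at 100 nM over both libraries. As folds at 100 nM, HoxA (3.54 ± 1.01) and Olfr (2.59 ± 0.237) lay within their errors of each other, and the interval of HoxD (4.87 ± 1.77) lay above that of Olfr by a small gap.

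**Figure D2:**
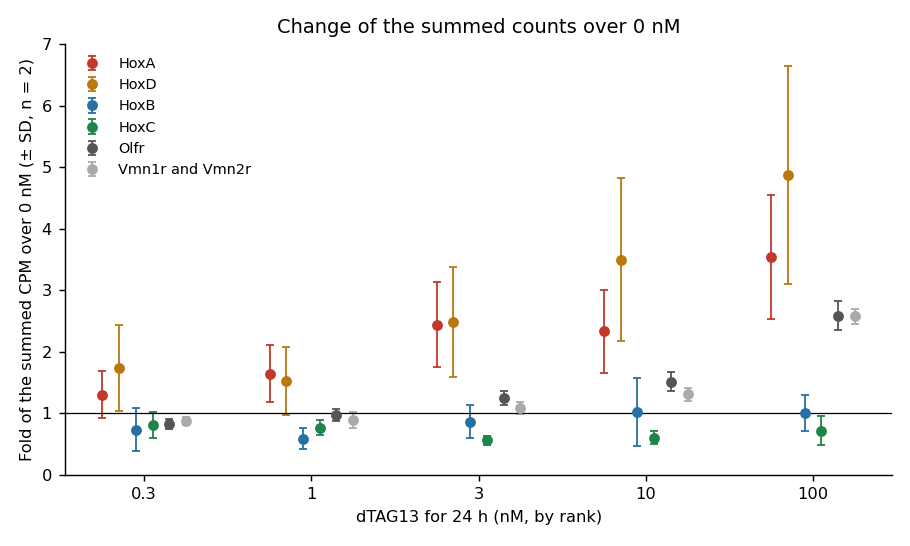
Fold of the summed CPM over 0 nM at each dTAG13 dose (nM, by rank) for the 4 Hox clusters and 2 receptor families. Points are means, bars are SD propagated from 2 libraries per group, and the line marks no change. The means of HoxA and HoxD lie above those of the receptor families at every dose, while HoxB stays near or under 1 and HoxC under 1. Bars overlap those of a receptor family for HoxA at 0.3, 10 and 100 nM and for HoxD at 1 nM.

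Per kb of exon the families differed more. From 0 to 100 nM, HoxA went from 0.171 to 0.607 RPKM, HoxD from 0.0977 to 0.476 and Olfr from 0.0505 to 0.131. The RPKM added at 100 nM was 0.435 for HoxA and 0.378 for HoxD, which is 5.43 and 4.72 times the 0.0801 added for Olfr. It was 0.00191 for HoxB and -0.143 for HoxC. At 0 nM, HoxA had 3.36 times the Olfr counts per kb, HoxB 6.41 times, HoxC 10.1 times and HoxD 1.91 times. Over the doses between, HoxA was at 5.34, 5.73, 6.60 and 5.23 times Olfr and HoxD at 4.06, 3.03, 3.84 and 4.49 times, so that the ratio was highest at 3 nM for HoxA and at 10 nM for HoxD and lower at 100 nM. At 100 nM the 4 ratios were 4.64, 2.45, 2.78 and 3.64, so that the clusters were closer to each other and their order had turned, with HoxA and HoxD now the higher pair. Where the Olfr counts per kb were first taken off each cluster, the fold at 100 nM was 3.94 for HoxA, 0.708 for HoxB, 0.510 for HoxC and 7.32 for HoxD. This setting was chosen after seeing the data, and its folds carry no error. For HoxD it leaves few control counts, as the 16 and 10 at 0 nM were 2.28 and 1.54 times Olfr per kb.

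Single genes were tested against 0 nM with edgeR (quasi-likelihood test, p adjusted by Benjamini and Hochberg) in a fit of all 23204 genes and 12 libraries, and a gene was called at an adjusted p under 0.05 with a change over 1.5-fold. At 100 nM, 6 of 39 Hox genes rose, against 3.37% of all genes, and 0 fell, against 4.62% of all genes. Of all calls at 100 nM 42.2% were higher, and 56.6% with upper-quartile factors or 57.0% with none. At an unadjusted p under 0.05, 12 Hox genes were higher and 1 lower. The likelihood ratio test called 11 higher and DESeq2's Wald test 1. Of the 6, 4 lie in HoxA, among them Hoxa5, Hoxa7 and Hoxa10, and 2 in HoxD, Hoxd11 and Hoxd13. In HoxB and HoxC 0 of 19 genes were called in either direction at 100 nM by this test, with 1 higher and 1 lower at an unadjusted p under 0.05. Both 100 nM libraries lay above both 0 nM libraries in CPM for 19 of 39 Hox genes, against 27.8% of all genes, and below them for 5, against 23.4%. By cluster, 8 of 11 HoxA, 7 of 9 HoxD, 3 of 10 HoxB and 1 of 9 HoxC genes were above.

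**Figure D3:**
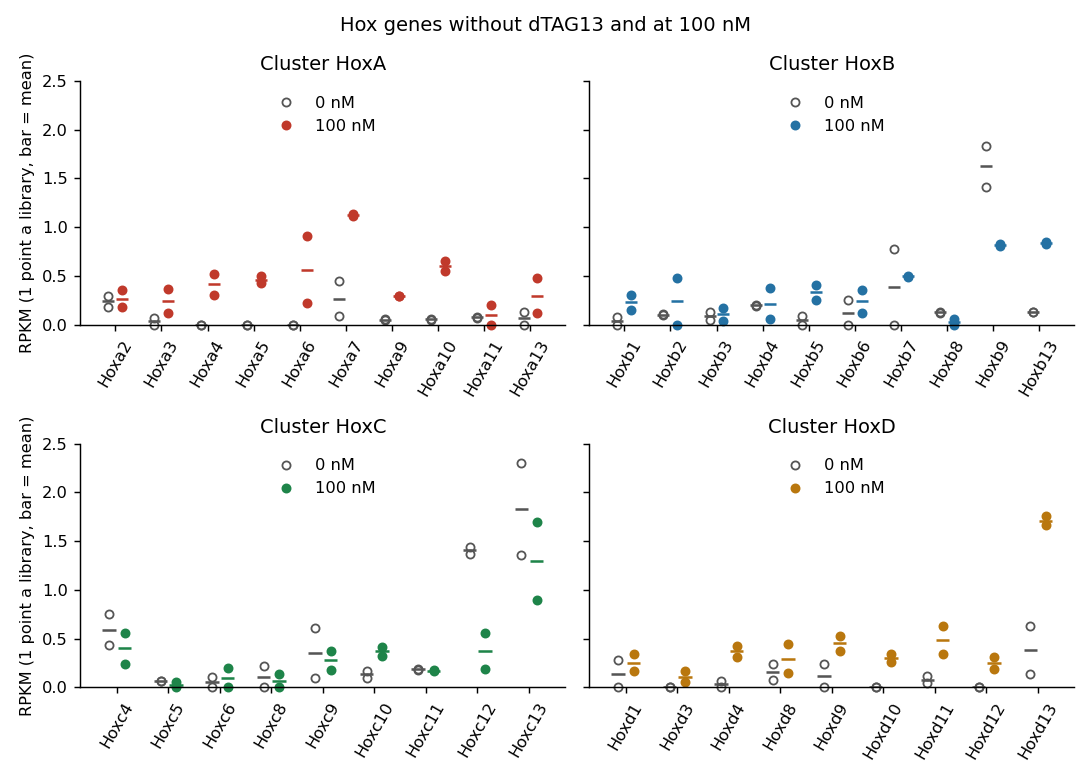
RPKM of Hox genes at 0 nM (open) and 100 nM (filled), by cluster and paralog number. Each point is a library and bars are means of 2. The filled points lie above the open ones for most of HoxA and HoxD, from Hoxa3 to Hoxa10 and from Hoxd9 to Hoxd13. Hoxb9, Hoxc12 and Hoxc13 are the high genes at 0 nM. Hoxb9 and Hoxc12 lie lower at 100 nM, while the points of Hoxc13 overlap with a lower mean.

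The median log2 change at 100 nM was 1.18 over the 39 genes, 2.34 in HoxA, 2.52 in HoxD, 0.57 in HoxB and -0.50 in HoxC, beside 0.09 over all genes and 1.97 over Olfr. Genes with 0 counts in both control libraries weigh on these medians, since their fitted changes depend on the prior count. With such genes set at their lower bound against 3 counts per library, the medians were 0.75, 1.18, 0.85, 0.57 and -0.50, beside 0 over all genes and 0 over Olfr. A gene at or under that floor at 100 nM was set at 0. Genes with 0 counts in both control libraries were 3 each in HoxA (Hoxa4, Hoxa5, Hoxa6) and HoxD (Hoxd3, Hoxd10, Hoxd12), and 655 of the 1012 Olfr genes. The Olfr median of 0 thus follows from this rule and does not show an unchanged family, as the Olfr sum rose. Every HoxA and HoxD gene had a fitted change above 0 at 100 nM, as had 8 of 10 HoxB and 2 of 9 HoxC genes. Of Olfr and vomeronasal genes 0 were called singly at 100 nM by this test, with 4 and 2 at an unadjusted p under 0.05.

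Hoxd13, at the tail end of HoxD and a regulator of digit formation, rose furthest in counts (chromosome 2, 74668310 to 74671599, plus strand). It had 9 and 2 counts (0 nM), 10 and 9 (0.3 nM), 5 and 8 (1 nM), 12 and 16 (3 nM), 20 and 24 (10 nM) and 26 and 28 (100 nM). From 3 nM on, every library lay above both controls. Its level went from 0.381 ± 0.351 to 1.71 ± 0.067 RPKM (SD, n = 2). By edgeR it rose by a log2 of 1.95 with 10 nM (SE 0.50, adjusted p = 0.0018) and 2.16 with 100 nM (SE 0.48, adjusted p = 0.000128).

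Hoxd11 (74679558 to 74687016), which with Hoxa11 patterns the forearm and kidney, had 1 and 3 counts (0 nM), 1 and 1 (0.3 nM), 3 and 4 (1 nM), 5 and 6 (3 nM), 7 and 11 (10 nM) and 9 and 17 (100 nM). The 100 nM libraries held 6.05 times the control counts, with a 95% counting interval of 2.10 to 23.9 (exact, conditional on the sum of counts, for counting error). Its log2 change at 100 nM was 2.52 (SE 0.80, adjusted p = 0.0148, edgeR). Hoxd10 (74691891 to 74695106), between them and the middle of the cluster, had 0 and 0 counts (0 nM), 0 and 1 (0.3 nM), 0 and 0 (1 nM), 3 and 2 (3 nM), 5 and 7 (10 nM) and 3 and 4 (100 nM). It rose at 10 nM, at least 1.97-fold against a floor of 3 counts per library (adjusted p = 0.0394, edgeR), and was not called at 100 nM (adjusted p = 0.112).

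In HoxA, Hoxa5, Hoxa7 and Hoxa10 were called at 100 nM. Hoxa5 (chromosome 6, 52201754 to 52204587), which shapes the neck, upper trunk and lung, had 0 and 0 counts (0 nM), 1 and 0 (0.3 nM), 1 and 2 (1 nM), 1 and 5 (3 nM), 6 and 1 (10 nM) and 5 and 6 (100 nM). It rose at least 1.7-fold against 3 counts per library (adjusted p = 0.0353, edgeR). Hoxa7 (52215624 to 52218573), a trunk gene, had 5 and 1 counts (0 nM), 4 and 4 (0.3 nM), 7 and 4 (1 nM), 9 and 3 (3 nM), 11 and 6 (10 nM) and 14 and 14 (100 nM). Its libraries overlap the controls until 3 nM, and its log2 change at 100 nM was 2.07 (SE 0.70, adjusted p = 0.0253, edgeR). Hoxa10 (52231197 to 52240854), used in the lumbar axis and uterus, had 1 and 1 counts (0 nM), 5 and 3 (0.3 nM), 1 and 5 (1 nM), 6 and 7 (3 nM), 8 and 7 (10 nM) and 13 and 11 (100 nM). The ratio was 11.2, with a counting interval of 2.77 to 97.5 that reflects the 2 control counts, and the adjusted p was 0.0036 (edgeR).

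The calls of these 5 genes rest on few counts, and each was lost when a single library was left out. Hoxd13 and Hoxa10 were lost without 0 nM replicate 2, with adjusted p up to 0.0767 and 0.0543 over all alternatives. Hoxd11 was lost without 0 nM replicate 1 or 100 nM replicate 2 (up to 0.261), and Hoxa7 without 0 nM replicate 2 or either 100 nM library (up to 0.377). Hoxa5 was lost without any one of the 4 libraries compared (up to 0.192, all from edgeR's quasi-likelihood test or DESeq2). The direction stayed the same in each case.

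A slope over the 6 doses by rank uses all 12 libraries. By it 11 of 39 Hox genes rose, against 9.29% of all genes, and 0 fell, against 10.7%, with 16 rising and 2 falling at an unadjusted p under 0.05. They include Hoxa4, Hoxa5, Hoxa7, Hoxa9 and Hoxa10 among 6 of HoxA, 4 of HoxD (Hoxd10, Hoxd11, Hoxd12, Hoxd13) and Hoxb13. By the same slope 70 of 1012 Olfr genes rose and 3 fell, and 18 of 260 vomeronasal genes rose and 0 fell. By class, 3 of 15 middle genes (paralogs 4 to 8) and 7 of 16 posterior genes (9 to 13) rose. The slope in log2 per dose step was 0.44 for Hoxd13 (SE 0.082, adjusted p = 0.000184), 0.61 for Hoxd11 (0.12, adjusted p = 0.000473) and 0.50 for Hoxa10 (0.12, adjusted p = 0.0036, edgeR for all slopes). The slopes of Hoxd10, Hoxd11, Hoxd13 and Hoxb13 were called in every alternative in which these genes were tested. Those of Hoxa5, Hoxa7 and Hoxa10 were lost in 1 alternative, without both 100 nM libraries. Without the 2 libraries of 100 nM, 4 Hox genes rose and 2 fell.

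**Figure D4:**
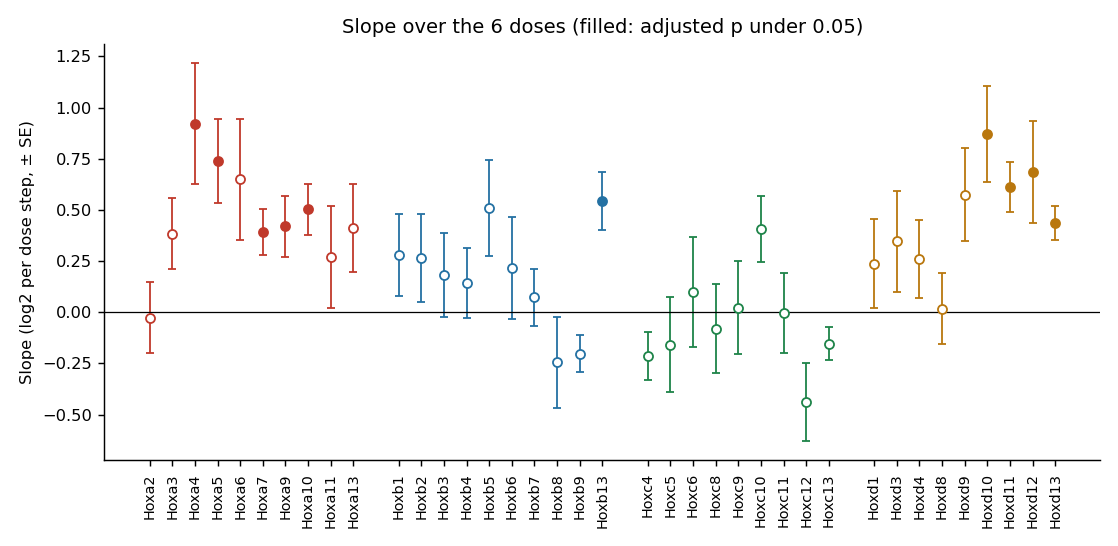
Slope of Hox genes over the 6 doses in log2 per dose step, with standard errors, ordered by cluster and paralog number. Filled points had an adjusted p under 0.05. The filled points are 5 HoxA genes between Hoxa4 and Hoxa10, 4 genes at the tail end of HoxD and Hoxb13, and none in HoxC is filled.

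Of the genes called by slope alone, Hoxa4 and Hoxa9 lie in HoxA and Hoxd12 in HoxD. Hoxa4 (52189687 to 52191703), used in the neck, had 5 and 0 counts at 3 nM, 0 and 1 at 10 nM, 5 and 3 at 100 nM and none in the 6 libraries below. Hoxa9 (52223097 to 52227370), known for its use in blood stem cells and leukaemia, had 1 and 1 counts (0 nM), 2 and 1 (0.3 nM), 2 and 3 (1 nM), 4 and 4 (3 nM), 3 and 4 (10 nM) and 6 and 6 (100 nM). Hoxd12 (74675013 to 74677705) had 0 and 0 counts (0 nM), 1 and 0 (0.3 nM), 1 and 1 (1 nM), 1 and 0 (3 nM), 1 and 0 (10 nM) and 3 and 5 (100 nM). The adjusted p of these slopes were 0.0264 for Hoxa4, 0.0436 for Hoxa9 and 0.0495 for Hoxd12 (edgeR). Hoxa9 and Hoxd12 lost the call in 12 and 14 of 21 alternatives, each without either 0 nM or either 100 nM library among others, and Hoxa4 in 5.

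Hoxb13 (chromosome 11, 96194361 to 96196599), set apart from the other HoxB genes and known from prostate and hindgut, was the HoxB gene that rose. It had 1 and 1 counts (0 nM), 3 and 1 (0.3 nM), 2 and 4 (1 nM), 5 and 4 (3 nM), 16 and 7 (10 nM) and 7 and 7 (100 nM). At 10 nM it was called higher (log2 change 3.34, SE 0.95, adjusted p = 0.0074) and at 100 nM not (2.56, SE 1.03, adjusted p = 0.0784), and its slope was 0.54 (SE 0.14, adjusted p = 0.0059, all by edgeR). The ratio of counts was 11.3 at 10 nM, with a counting interval of 2.79 to 98.8. The 10 nM call was lost without 10 nM replicate 1 or either control.

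At 10 nM, 3 of 39 Hox genes rose (Hoxd13, Hoxd10 and Hoxb13), against 1.70% of all genes, and 1 fell (Hoxc13), against 3.14%. The 10 nM call of Hoxd13 was lost without 0 nM replicate 2 (adjusted p up to 0.240 over all alternatives, edgeR or DESeq2), and that of Hoxd10 without any one of the libraries of 0, 10 or 100 nM (up to 0.228). DESeq2's Wald test called 0 Hox genes at 10 nM. At 3 nM 0 rose by edgeR's quasi-likelihood test, against 0.750% of all genes, with 6 at an unadjusted p under 0.05, and 2 fell (Hoxb9 and Hoxc13), against 1.72%. At 1 nM 0 rose by that test, against 0.138%, with 0 also at an unadjusted p under 0.05, and 1 fell (Hoxb9), against 0.474%. At 0.3 nM 0 genes passed in either direction, against 0.00431% and 0.0388% of all genes, with 1 higher (Hoxd4) and 1 lower (Hoxb9) at an unadjusted p under 0.05. Between 3 and 0.3 nM 0 Hox genes passed, against 0.414% higher and 0.965% lower, with 2 higher (Hoxb3 and Hoxd11) and 1 lower (Hoxc4) at an unadjusted p under 0.05. DESeq2's Wald test called 0 Hox genes at 0.3, 1 and 3 nM.

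Both genes that fell were the most counted of their clusters. Hoxc13 (chromosome 15, 102921131 to 102928814), needed for hair and nails, had 19 and 34 counts (0 nM), 16 and 14 (0.3 nM), 17 and 20 (1 nM), 12 and 7 (3 nM), 13 and 6 (10 nM) and 26 and 14 (100 nM). It was lowest at 3 and 10 nM and overlapped the controls again at 100 nM. Its log2 change was -1.32 at 3 nM (SE 0.42, adjusted p = 0.0363), -1.49 at 10 nM (SE 0.42, adjusted p = 0.0065) and -0.50 at 100 nM (SE 0.36, adjusted p = 0.428, edgeR). Against 0.3 nM, the 3 nM change was -0.59 (SE 0.47, adjusted p = 0.705, edgeR).

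Hoxb9 (chromosome 11, 96271330 to 96276593), a thoracic gene, had 22 and 30 counts (0 nM), 20 and 8 (0.3 nM), 11 and 7 (1 nM), 9 and 7 (3 nM), 19 and 5 (10 nM) and 14 and 14 (100 nM). Every library with dTAG13 lay below both controls in counts. The log2 change was -1.52 at 1 nM (SE 0.44, adjusted p = 0.0406), -1.54 at 3 nM (SE 0.45, adjusted p = 0.0161) and -0.99 at 100 nM (SE 0.40, adjusted p = 0.0827, edgeR). Within the run of S numbers of 0.3 and 3 nM it was -0.74 (SE 0.50, adjusted p = 0.614, edgeR). Both calls of Hoxc13 were lost without 0 nM replicate 2 or without replicate 2 of the dose. Both calls of Hoxb9 were lost without 0 nM replicate 2 or either library of the dose, and the 1 nM call also without 0 nM replicate 1. The slope of neither gene passed (adjusted p = 0.111 for Hoxb9 and 0.185 for Hoxc13, edgeR).

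The other 26 Hox genes passed no test. In HoxA they were Hoxa2, Hoxa3, Hoxa6, Hoxa11 and Hoxa13, with 8 to 38 counts over the 12 libraries. Hoxa3 and Hoxa11 share exon bases with antisense genes, 16.4% and 24.8% of their length, and read pairs on those shared bases were counted for neither gene. In HoxB, Hoxb1 to Hoxb8 had 10 to 54 counts, in HoxC, Hoxc4 to Hoxc12 had 12 to 77, and in HoxD, Hoxd1, Hoxd3, Hoxd4, Hoxd8 and Hoxd9 had 16 to 38. Of genes picked after their values were seen, Hoxd4 had 0 and 1 counts in controls and 5 and 7 with 100 nM, and Hoxd9 had 0 and 3 and then 7 and 5. Hoxc12 had 7 and 7 counts in controls and 1 and 3 with 100 nM (log2 change -1.84, SE 1.02, adjusted p = 0.252, edgeR). Genes with a count in both libraries of a group numbered 22 of 39 in controls, 21 to 29 at the middle doses and 33 with 100 nM. In HoxD that number went from 3 to 9 of 9 between 0 and 100 nM, in HoxA from 6 to 10 of 11, in HoxB from 6 to 8 of 10 and in HoxC from 7 to 6 of 9.

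Summed by paralog class, with paralogs 1 to 3 as anterior, all 3 classes were higher at 100 nM. Anterior genes went from 24 and 19 to 51 and 55 counts (2.28 ± 0.468-fold in CPM, SD, n = 2), middle genes from 23 and 27 to 64 and 51 (2.15 ± 0.405-fold), and posterior genes from 71 and 87 to 126 and 128 (1.5-fold, SD 0.16). The Olfr fold at this dose was 2.59 ± 0.237, within the errors of the anterior and middle folds. It lay above the posterior fold and that of all 39 genes (1.76 ± 0.103). Per kb of exon, all Hox genes went from 5.08 to 3.44 times Olfr between 0 and 100 nM, while their added RPKM was 2.43 times that of Olfr. The classes mix clusters that moved apart. A split into HoxA with HoxD against HoxB with HoxC was made after the cluster sums were seen. The direction of the contrast between these pairs thus follows in part from that choice. Posterior genes of HoxA and HoxD (9 genes) were above both controls at all 5 doses and stood at 5.59 ± 1.35-fold at 100 nM, whereas those of HoxB and HoxC (7 genes) were below both controls at all 5 doses, at 0.463 ± 0.145 at 3 nM and 0.724 ± 0.183 at 100 nM. Most control counts of these 7 genes lay in Hoxb9 (52 counts at 0 nM, 28 at 100 nM), Hoxc13 (53 and 40) and Hoxc12 (14 and 4). Hoxb13 (2 and 14) and Hoxc10 (3 and 9) had more counts at 100 nM, and Hoxc9 (7 and 6) and Hoxc11 (2 and 2) changed little. The drop is thus not shared by all 7. Middle genes stood at 6.02 ± 4.12-fold in HoxA and HoxD (6 genes) and at 1.03 ± 0.392 in HoxB and HoxC (9 genes). Anterior genes were at 2.31 ± 0.638-fold in HoxA and HoxD (5 genes). HoxC has no anterior gene, and the 3 of HoxB were at 2.13 ± 0.355-fold. That fold rests on 3 and 4 counts in controls and 8 and 8 at 100 nM, and its SD does not cover counting error. At 3 nM the 3 anterior HoxB genes stood at 2.70 ± 0.642-fold.

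**Figure D5:**
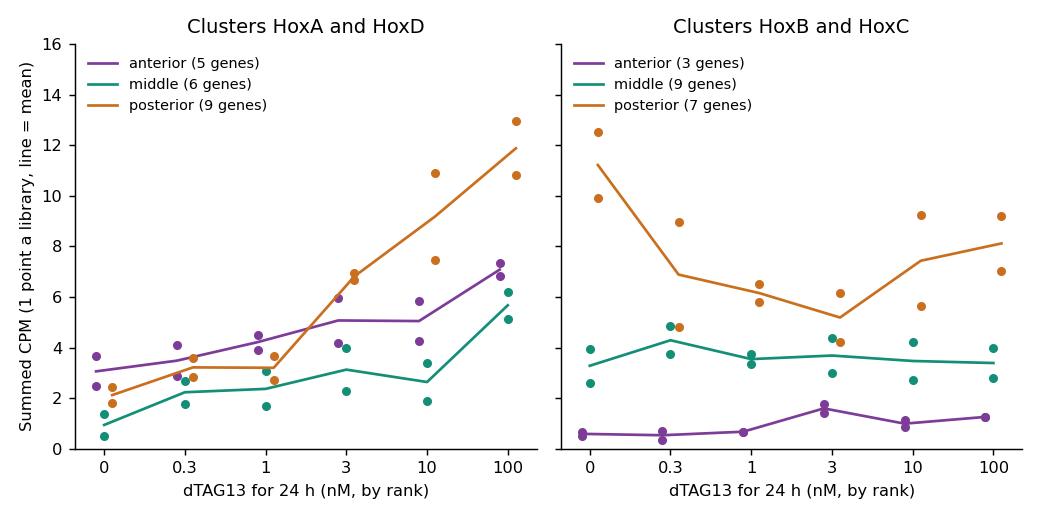
Summed CPM of anterior, middle and posterior Hox genes against dTAG13 dose (nM, by rank), for HoxA with HoxD and for HoxB with HoxC. These pairs of clusters were chosen after the cluster sums were seen. Each point is a library and lines join means of 2. The posterior line climbs from 2.12 to 11.9 CPM in HoxA and HoxD and drops from 11.2 to 5.19 CPM at 3 nM in HoxB and HoxC, ending at 8.12 CPM.

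By single paralog number, groups 3, 5 and 11 were above both controls at 1, 3, 10 and 100 nM, group 7 at all 5 doses and group 10 at all doses but 1 nM. Group 9 was below at all 5 doses and group 12 at 3 of them. Group 9 had 29 and 35 control counts, of which Hoxb9 held 52. From 0 to 100 nM Hoxa9 went from 2 to 12 counts, Hoxd9 from 3 to 12 and Hoxc9 from 7 to 6. The 31 counts of group 9 in 100 nM replicate 1 lay below the control with 29 only through scaling to library size. Hoxc12 held all 14 control counts of group 12, and Hoxd12 went from 0 to 8 counts. Most of these sums rest on few counts. Controls held 2 and 3 counts in groups 3 and 10, and 1 and 2 in group 5. In group 11 they held 3 and 5, and in group 7 they held 5 and 7. With 9 and 2 counts at 10 nM, group 5 lay above the control with 2 counts only through scaling to library size. The SDs that follow do not cover counting error. At 100 nM the fold was 7.48 ± 1.95 for group 10 (3 genes), 3.62 ± 2.11 for group 11 (3 genes), 2.80 ± 0.561 for group 7 (2 genes) and 0.845 ± 0.124 for group 9 (4 genes, SD, n = 2).

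Annotated genes around the clusters were looked at too. Of 22 genes within 200 kb of a cluster 3 rose at 100 nM and 0 fell (3.37% and 4.62% of all genes), and all 3 flank HoxA. Halr1, a noncoding gene that flanks HoxA (52102949 to 52113684), had 62 and 48 counts in controls and 145 and 116 with 100 nM, a log2 change of 1.14 (SE 0.20, edgeR adjusted p = 1.7e-07). Evx1 (52313498 to 52318378), a homeobox gene beyond Hoxa13, had 11 and 14 counts and then 69 and 48, a change of 2.11 (SE 0.34, edgeR adjusted p = 2.1e-08). The noncoding 5730457N03Rik (52308389 to 52314832), whose span overlaps that of Evx1, had 1 and 4 counts and then 19 and 25, a change of 2.97 (SE 0.66, edgeR adjusted p = 0.000116). Strand was not used in counting, so reads of these overlapping genes cannot be fully told apart.

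Of 17 tested genes inside the clusters that are not Hox genes 0 rose and 1 fell, Gm53 in HoxB (62 and 69 to 45 and 44 counts, log2 change -0.66, SE 0.24, adjusted p = 0.0384, edgeR). By slope, Haglr, a noncoding gene at Hoxd1, rose (0 and 0 counts at 0 nM, 8 and 2 at 100 nM, adjusted p = 0.0072, edgeR) and was the sole gene inside a cluster to do so, and Gm53 fell. Of 16 tested noncoding RNAs and microRNAs of the clusters and their flanks, Halr1 rose at 100 nM and 0 fell, and by slope Halr1 and Haglr rose.

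The lists of regulators that follow are small, and their counts at 100 nM stand beside 3.37% of all genes called higher and 4.62% called lower. Among 10 regulators of Hox onset, 1 rose and 2 fell. Cdx2, a caudal homeobox factor that activates trunk Hox genes, had 10 and 4 counts in controls and 64 and 60 with 100 nM (log2 change 3.02, SE 0.38). Its paralog Cdx1 fell by 1.84 on the log2 scale (312 and 354 to 107 and 93 counts, SE 0.14) and the signal Wnt3a fell by 2.36 (26 and 13 to 2 and 6 counts, SE 0.56, adjusted p = 0.000483, edgeR). Of 15 retinoic acid genes 2 rose, the synthesis enzyme Aldh1a2 (1.33, SE 0.24) and the degrading enzyme Cyp26b1 (2.12, SE 0.67), and 3 fell, Rara (-0.59), Rxra (-1.16) and Crabp1 (-0.94). Of 22 Polycomb and trithorax genes 2 rose, the PRC1 subunits Bmi1 (1.02, SE 0.17) and Ring1 (0.73, SE 0.27). Of 9 Hox cofactors 1 fell, Pknox2 (-1.46, SE 0.32).

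Markers of other cell types were counted against the same shares, 3.37% of all genes called higher and 4.62% lower at 100 nM. The 8 mES cell markers summed to 1271 to 1313 RPKM at 0 nM and 1208 to 1253 at 100 nM, below both controls. All 8 had counts at each of these doses, with 1 of 8 called lower at 100 nM (Tfcp2l1) and 0 higher. By slope 2 of the 8 rose and 3 fell, against 9.29% and 10.7% of all genes. A sum weighs the most expressed markers most and does not show each marker. The 8 neural markers summed to 36.7 to 41.2 RPKM at 0 nM and 66.8 to 68.3 at 100 nM, and 4 of 8 rose (Pax6, Tubb3, Nes and Zic1). At 0 nM 2 of the 8 had 0 counts, Zic1 among them, and at 100 nM 1 did, Neurog2. The 8 mesoderm markers summed to 14.2 to 18.1 and then 20.1 to 21.1 RPKM, with 1 of 8 called higher (Kdr) and Msgn1 at 0 in both. The 7 endoderm markers summed to 1.61 to 1.90 and then 2.00 to 2.02 RPKM, with 0 of 7 called and Ttr at 0 counts at 0 nM. The 8 trophoblast markers, Cdx2 among them, summed to 27.4 to 29.0 and then 16.9 to 18.9 RPKM, with 2 called higher and 3 lower. The 10 fibroblast markers summed to 1.54 to 1.55 and then 2.25 to 3.05 RPKM, with 1 of 10 called (Pdgfra) and Twist2 at 0 at 100 nM. The part of these shifts in the HoxA and HoxD values was not tested, and in bulk RNA more cells of a type and more RNA per cell cannot be told apart.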

How the data were processed

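RNA-seq libraries of 12 samples were analysed. The authors deposited raw counts of read pairs per gene, with gene coordinates and lengths, and applied no normalisation or filter. Per the paper's methods and the labels, reads were trimmed with Trim Galore and aligned to mm10 with HISAT2. Per the file headers, pairs with both ends aligned were counted over exons with featureCounts 2.0.1, and its strand, overlap and multi-mapping options were left at their defaults. By these defaults strand is not used, and multi-mapped pairs and pairs on exons of more than 1 gene are not counted. Groups were taken from the labels.

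Genes with at least 1 count (23204) entered 1 fit of all 12 libraries in edgeR 4.0.16 (limma 3.58.1, R 4.3.3) with TMM factors and the quasi-likelihood test, and p-values were adjusted over all of them by the Benjamini-Hochberg method. A gene was called at an adjusted p under 0.05 and over 1.5-fold, and the slope over dose rank at an adjusted p under 0.05. CPM and RPKM used TMM library sizes. The authors name edgeR's likelihood ratio test, which with DESeq2 1.42.0, other factors, other filters and left-out libraries was an alternative. Sums over genes carry SDs of 2 libraries and no test. Total counts of 4663484 to 6375582 leave most Hox genes with under 10 counts a library. Intervals and floors (3 counts) cover counting error only. Hox genes called in any comparison and the 3 with the highest mean RPKM were named with every library's value, and listed or neighbouring genes singly only where called. Some genes that the rule names are not reported here. The members and lists were chosen with earlier results of these data known. Scripts were tested on simulated counts. Promoter sequences are RefSeq's, build GRCm38.p6.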

Additional observations from a re-analysis of the deposited data

How the results depend on the processing

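The counts of called Hox genes depended on the test and the libraries. Of the alternatives on counts of calls and on summed folds, 191 stayed near the main value and 44 moved. A count was taken as moved at over 1.5-fold from the main value, and a summed fold at its SD or more. These rules differ in scale, so counts and folds were not ranked against each other. Of the alternatives on single called genes, 422 kept direction and call, 99 lost the call and 0 reversed. DESeq2's Wald test called 0 Hox genes at 1, 3 and 10 nM and 1 at 100 nM, against 1, 2, 4 and 6, and the likelihood ratio test called 11 at 100 nM. With a mean of at least 1 RPKM required, 0 were called at 1 and 3 nM, 1 at 10 nM, 1 at 100 nM and 1 by slope (11 in the full set of genes), since 2 Hox genes pass that filter. With filterByExpr 0 were called at 1 and 3 nM and 5 by slope. With no factors 0 were called at 1 nM and 1 at 3 nM, and with upper-quartile factors 1 at 3 nM. Upper-quartile factors and no factors moved the median log2 change of all genes at 100 nM from 0.09 to 0.20 and 0.21. In a fit of the 4 libraries compared alone 0 were called at 1 nM and 1 at 100 nM. Without the 100 nM libraries, an alternative chosen after seeing the data, 6 slopes were called (4 higher, 2 lower). Leaving out 1 library at a time gave 0 to 1 calls at 1 nM, 0 to 3 at 3 nM, 0 to 4 at 10 nM, 1 to 6 at 100 nM and 8 to 10 by slope, and the lone library left in a group is then assumed to vary like the others. The causes were not tested.

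Differences between the 2 libraries of a dose correlated between doses at -0.095 to 0.092, so no strong effect shared by replicate number was seen. This cannot show whether libraries with the same number were made together, which the labels do not say. With the replicate number as a block 1, 2, 4, 5 and 9 Hox genes were called at 1, 3, 10 and 100 nM and by slope.

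At 100 nM the folds of HoxA, HoxB, HoxC and HoxD ranged over 2.95 to 4.42, 0.838 to 1.26, 0.560 to 0.875 and 3.88 to 6.54 with 1 library left out, those of all Hox, anterior, middle and posterior genes over 1.71 to 1.82, 2.00 to 2.66, 1.88 to 2.41 and 1.39 to 1.62, and that of Olfr over 2.43 to 2.76. Without the gene with most counts the fold was 1.95 for HoxB and 1.89 for posterior genes, and this alternative was not run for HoxA and anterior genes. Net of Olfr counts per kb, a setting chosen after seeing the data, the fold was 0.708 for HoxB and 7.32 for HoxD. All Hox genes stood at 1.92 with library totals and 1.90 without Rn45s and Rpph1 in the library size. Split by clusters A and D against B and C, middle genes stood at 6.02 and 1.03 and posterior genes at 5.59 and 0.724. That split was chosen after the cluster sums were seen. Olfr without its 5 top genes stood at 2.95. At these depths a Hox gene with under 3 counts a library in both groups could not be seen to change.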
